A study of Mus musculus with 15 samples.

Results

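Chromatin marks were examined at 10 mouse genes of cytosolic nucleic acid sensing and ADP-ribosylation, namely Ddx58, Ifih1, Dhx58, Mavs, Zbp1, Trex1, Rtp4, Parp9, Dtx3l and Parp14. They were chosen by name and form 10 of 21938 protein-coding genes of GENCODE M21 on the mm10 build. The libraries were CUT & RUN libraries, in which an antibody directs a nuclease to cut out the chromatin it binds, from bone marrow-derived macrophages (BMDMs) cultured for 6 to 8 days in medium with 10% FBS and 20% L929 conditioned medium. The donor mice were of the C57BL/6 background, male and female, and 8 to 10 weeks old. WT mice carried floxed H3f3a and H3f3b, both genes for histone H3.3, and no Cre. The cKO mice carried the same floxed alleles plus LysM cre/cre, which expresses Cre from the Lyz2 locus in myeloid cells, so that deletion depends on cells that use this promoter. A separate line carried an HA tag on H3.3 encoded by H3f3b. H3K27ac and H3K36me3 were each profiled in 2 WT and 2 cKO libraries, and H3.3-HA in 2 libraries of the tagged line. How many mice stood behind each library was not given in the sources used here, so the spread between replicates may be partly technical.

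Ddx58 encodes RIG-I, Ifih1 encodes MDA5 and Dhx58 encodes LGP2, the helicases that recognise viral or misplaced RNA in the cytosol, and Mavs encodes the mitochondrial adaptor through which RIG-I and MDA5 signal to interferon genes. Zbp1 encodes a sensor of Z-form nucleic acid that can start necroptosis, and Trex1 a DNA exonuclease that clears cytosolic DNA. Parp9 and Parp14 encode members of the PARP family, Dtx3l encodes the ubiquitin ligase partner of Parp9, and Rtp4 encodes an interferon-induced receptor transporter protein. In macrophages most of these genes are known targets of type I interferon. H3K27ac is a mark of active promoters and enhancers, and H3K36me3 is laid down over the bodies of transcribed genes.

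The deposited files list the regions in which each library was enriched over an IgG library, without a height for each region. The WT lists were called against WT IgG and the cKO lists against cKO IgG. An effect of the control on the regions thus cannot be told apart from one of genotype. The measure used here was the covered share, the percent of a gene's window (its body plus 5 kb upstream of its start) that lay inside the regions of a library. In bulk chromatin, a mark on more cells and more of the mark per cell cannot be told apart. The H3K27ac libraries held 16444864 to 29988098 tags, with 21.5 to 24.1% of them in regions in WT and 11.8 to 17.8% in cKO. The H3K36me3 libraries held 14027132 to 23782914 tags, and cKO replicate 1 stood apart, with 19.3% of tags in regions that spanned 90.7 Mb, against 46.5 to 50.2% and 163 to 170 Mb in the other 3. The H3.3-HA libraries were the shallowest, with 5365319 and 6951296 tags. Regions lay over 7 or 8 of 8 macrophage marker genes in every library. Their summed H3K27ac share was 269.9 to 317.4% in WT and 207.2 to 237.0% in cKO, and their summed H3K36me3 share was 460.1 to 489.9% and 499.3 to 614.5%. For H3K27ac, Adgre1, Itgam, Mertk and Lyz2 were lower in both cKO libraries and Cd68 was higher, with Lyz2, the Cre locus, at 94.2 and 88.4% in WT and 28.1 and 24.4% in cKO. The part of these shifts in the results was not tested. Of 30 markers of other blood and stromal cells, 2 to 5 held a region in WT H3K27ac libraries and 4 to 6 in cKO, and the summed covered share was 24.6 to 25.4% in WT and 14.8 to 59.9% in cKO. The neutrophil genes Elane and Ltf were among them in all 4, and their part in the results was not tested. For H3K36me3, 0 or 1 of the 30 held a region in any WT or cKO library. In the H3.3-HA libraries 7 to 10 of the 30 did, with a summed share of 79.3 to 120.5%. S100a8, Elane, Ltf, Cd79a, Lck, Flt3 and Zbtb46 were among them in both H3.3-HA libraries, and their part in the H3.3-HA results was not tested.

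A list of regions cannot show whether H3f3a and H3f3b were deleted. The paper describes H3f3b deletion as variable, complete in some cKO samples and partial in others. H3K27ac regions covered 11.9% of the H3f3a window in both WT libraries and 22.4 and 19.7% in the cKO libraries, and 58.3 and 52.3% against 65.2 and 85.5% of the H3f3b window. H3K36me3 regions covered 52.3 and 56.3% of the H3f3a window in WT and 49.1 and 52.8% in cKO, which overlapped. At H3f3b they covered 5.84 and 7.78% in WT and 21.7 and 24.2% in cKO.

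H3K27ac covered a larger share of Zbp1, Rtp4 and Parp14 and a smaller share of Mavs and Trex1 in both cKO libraries than in either WT library. The other 5 genes had cKO values that overlapped the WT values. All 10 genes held an H3K27ac region in at least 1 of the 4 libraries. Among the 12767 genes of which this was true, 17.4% were higher in both cKO libraries and 38.2% were lower, so that 3 of 10 higher and 2 of 10 lower stood against a background that leaned to loss. The median difference, cKO minus WT, was 1.38 percentage points over the 10 genes and -1.02 over all 12767.

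H3K36me3 covered a larger share of Dhx58, Zbp1, Rtp4 and Parp14 in both cKO libraries, and no member was lower in both. Among 11975 genes with an H3K36me3 region in at least 1 of the 4 libraries, 7.85% were higher and 37.7% were lower. The median difference was 3.76 percentage points over the 10 genes and -4.99 over all 11975. These counts depended on the cKO library. With cKO replicate 1 left out, all 10 members were above both WT libraries for H3K36me3 and 7 for H3K27ac, but so were 41.5 and 37.6% of all genes. With cKO replicate 2 left out, 4 were above and 5 below for H3K36me3, against 8.80 and 79.9% of all genes. For H3K27ac 3 were then above and 5 below, against 20.6 and 57.5%. Zbp1, Rtp4 and Parp14 were the 3 members higher in cKO for both marks.

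With 2 libraries against 2, an exact two-sided permutation test cannot give a p below 0.333, and each gene whose groups did not overlap had this value. Adjusted over all genes by the Benjamini-Hochberg method, that smallest exact p became 0.599 for H3K27ac and 0.731 for H3K36me3. No difference at a single gene therefore passed a threshold of 0.05, and higher or lower below means only that both cKO libraries lay on the same side of both WT libraries.

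**Figure D1:**
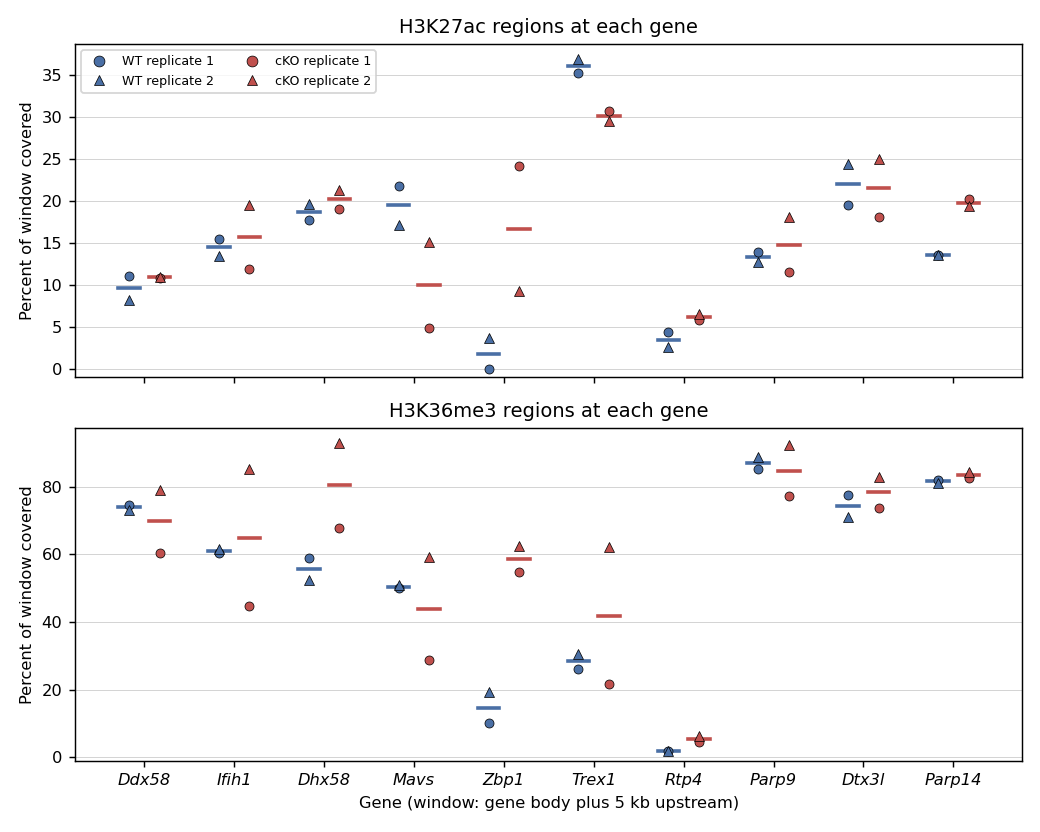
Percent of each gene's window covered by H3K27ac regions (top) and H3K36me3 regions (bottom), with a circle for replicate 1, a triangle for replicate 2, and a bar for the mean of each group of 2 libraries. Zbp1 shows both cKO values well above both WT values for both marks, while the H3K36me3 values of Ifih1 and Mavs in cKO spread to both sides of WT.

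**Figure D2:**
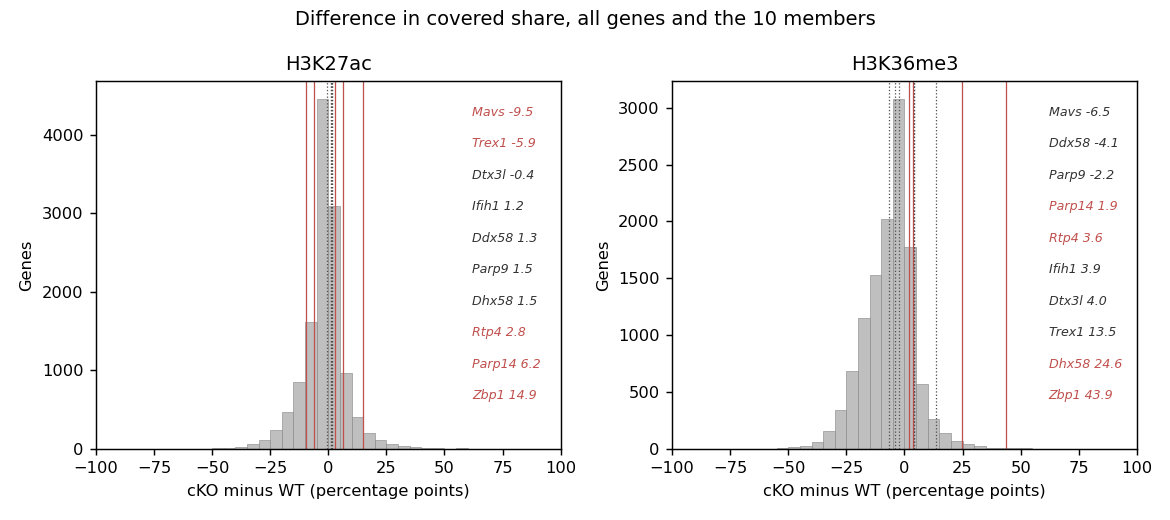
Difference in covered share, cKO minus WT in percentage points (x axis), against the number of genes (y axis, bins of 5 points) for all genes tested, with the 10 members as vertical lines (red where the groups did not overlap, dotted grey where they did) and their values in the list. The bulk of genes lies below 0 for H3K36me3, and Zbp1 lies at 43.9.

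Among the RNA sensors, Ddx58 (chr4:40203773-40239828, minus strand) had H3K27ac covered shares of 11.0 and 8.19% in WT and 10.8 and 11.0% in cKO. Its H3K36me3 shares were 74.7 and 73.0% in WT and 60.5 and 79.1% in cKO. For both marks the cKO values overlapped WT or lay to both sides of it. Ifih1 (chr2:62595798-62646255, minus strand) had H3K27ac shares of 15.5 and 13.4% in WT and 11.8 and 19.5% in cKO. The H3K36me3 share of Ifih1 was 60.4 and 61.6% in WT and 44.8 and 85.1% in cKO, a gap between the cKO libraries far wider than that between the WT libraries. Neither receptor gene was thus separated by genotype over its window. Within 2 kb of the gene start both were higher in cKO for H3K27ac. In that window 4 of the 10 members were higher and 2, Trex1 and Dtx3l, were lower. These calls are given without the share of all genes in the same window. The shares there were 49.7 and 55.2% in WT and 64.9 and 58.1% in cKO at Ddx58. At Ifih1 they were 68.3 and 67.9% in WT and 69.6 and 89.7% in cKO. H3K36me3 had no region within 2 kb of either start.

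Dhx58 (chr11:100694884-100704271, minus strand), whose product lacks the signalling domains of the other sensors, had an H3K36me3 share of 59.0 and 52.5% in WT and 67.9 and 92.9% in cKO. The mean rose from 55.8 ± 4.62% to 80.4 ± 17.7% (SD, n = 2 each). Over the gene body alone the shares were 51.5 and 44.7% in WT and 67.2 and 89.1% in cKO. Most of the upstream part of this window lies in Kat2a, whose own window had shares of 57.5 and 61.5% in WT and 58.7 and 70.3% in cKO, groups that overlapped. The Dhx58 H3K27ac shares, 17.7 and 19.6% in WT against 19.02 and 21.3% in cKO, overlapped over the window. Over the gene body alone they were 18.8 and 20.8% in WT and 23.2 and 27.8% in cKO and did not overlap. Nor did they within 2 kb of the start, at 50.6 and 55.2% in WT and 64.0 and 61.5% in cKO. Both H3K27ac separations are given without the share of all genes in the same window.

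Mavs (chr2:131234063-131248025, plus strand) was lower in cKO for H3K27ac. The shares were 21.8 and 17.2% in WT and 4.88 and 15.1% in cKO, with means of 19.5 ± 3.296% and 10.0 ± 7.23%. Both WT libraries had a region between 3.47 and 6.30 kb inside the gene, 1.54 and 2.75 kb wide, where cKO replicate 1 had none and cKO replicate 2 had a region of 0.761 kb. Within 2 kb of the gene start the Mavs groups overlapped, at 39.9 and 12.5% in WT and 23.1 and 52.6% in cKO. The H3K36me3 shares of Mavs, 49.97 and 51.0% in WT and 28.8 and 59.2% in cKO, did not separate the groups.

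The H3K27ac region at the start of Ddx58 and of Ifih1 was called in all 4 WT and cKO libraries, and it covers the promoter sequence of each in the RefSeq table (GRCm38.p6). That table matched 5 of the 10 members, Ddx58, Ifih1, Mavs, Trex1 and Dtx3l. Both strands were searched for the interferon-stimulated response element core GAAANNGAAA, to which interferon-activated STAT and IRF factors are known to bind, and for the STAT site TTCNNNGAA. The first was found in the promoters of Ddx58 and Ifih1, each just after the start, and neither motif was found in the promoters of the other 3. Of all 32851 promoters of 300 bases, 3.44% held the first motif and 8.30% the second. The 30 bases around each match are shown 5′ to 3′ on the gene's strand, at chr4:40239804-40239833 and chr2:62646206-62646235, with the match in capitals.
Ddx58: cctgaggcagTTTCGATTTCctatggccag
Ifih1: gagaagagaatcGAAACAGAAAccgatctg
In Ddx58 the match is on the opposite strand. A match of letters is a description and does not show binding.

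Zbp1 (chr2:173206612-173218923, minus strand) had the largest difference of the 10 members for both marks over this window. H3K27ac was listed at 0% in WT replicate 1 and 3.64% in WT replicate 2, against 24.2 and 9.22% in cKO. WT replicate 2 had a single region of 0.630 kb across the start, and the cKO libraries had start regions of 3.68 and 1.60 kb. The mean was 1.82 ± 2.57% in the WT libraries and 16.7 ± 10.6% in the cKO libraries (SD, n = 2), so the cKO libraries differed widely in size while both exceeded WT. The H3K36me3 share was 10.2 and 19.2% in WT and 54.8 and 62.5% in cKO. The mean difference of 43.9 percentage points was several times the SDs of 6.38 in WT and 5.44 in cKO. In WT the mark lay in 3 and 4 short regions of 0.501 to 1.15 kb. In cKO replicate 1 it lay in regions of 3.15 and 7.24 kb, and in cKO replicate 2 in a single region of 12.3 kb that ran past the transcript end. With cKO replicate 2 left out the H3K36me3 difference was 40.1 points. Within 2 kb of the Zbp1 start the H3K36me3 groups overlapped, at 0 and 0.275% in WT and 0 and 12.5% in cKO.

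Trex1 (chr9:109057933-109059734, minus strand) is 1.80 kb long, and its whole window lies inside the Atrip gene, so that regions there cannot be assigned to either gene. The H3K27ac share was 35.3 and 36.8% in WT and 30.7 and 29.6% in cKO. A single region of 7.08 to 7.21 kb covered 100% of the gene body in all 4 libraries, and the difference lay in its upstream edge, at -596 and -704 bp from the start in WT and at -283 and -209 bp in cKO. H3K36me3 covered 18.3 and 21.8% of the Trex1 body in WT and 81.8 and 100% in cKO. Over the window with 5 kb upstream the same mark gave 26.1 and 30.6% in WT and 21.7 and 62.03% in cKO, which overlapped. The upstream 5 kb lies in Atrip, whose window had 43.1 and 49.5% in WT and 28.3 and 55.6% in cKO.

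**Figure D3:**
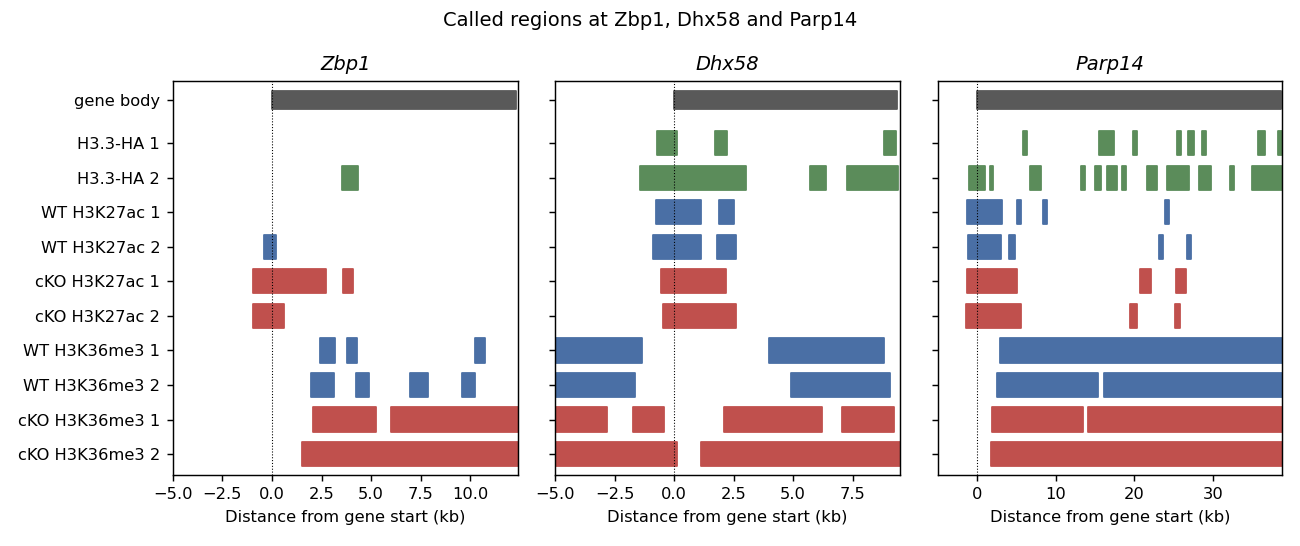
Called regions of each library (rows) at Zbp1, Dhx58 and Parp14 by distance from the gene start in kb, with the gene body in grey, H3.3-HA in green, WT in blue and cKO in red. At Zbp1 the H3K36me3 regions are short in WT and reach 7.24 and 12.3 kb in cKO.

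Rtp4 (chr16:23520291-23614222, plus strand) spans 93.9 kb in GENCODE because of a long transcript, while the short transcript occupies its last 4304 bp. Over the gene window the H3K27ac shares were 4.34 and 2.55% in WT and 5.87 and 6.54% in cKO. The H3K36me3 shares were 1.96 and 1.92% in WT and 4.57 and 6.43% in cKO, so both marks were higher in cKO. In a window drawn from the short transcript, chosen after its values were seen, H3K27ac covered 32.96 and 21.7% in WT and 43.6 and 44.6% in cKO. H3K36me3 there covered 20.8 and 20.4% in WT and 39.4 and 40.2% in cKO, a difference of 19.2 percentage points with SDs of 0.312 and 0.547. Both cKO libraries also had an H3K36me3 region 67.3 to 69.9 kb inside the long gene record, in an intron, that no WT library had. In cKO replicate 1 this region was 858 bp of the 2628 bp merged region.

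Parp9 (chr16:35938470-35972605, plus strand) and Dtx3l (chr16:35926511-35939151, minus strand) start head to head with overlapping first parts, and 60.6% of the Dtx3l window is shared with that of Parp9. Their values are thus not independent. H3K27ac covered 13.9 and 12.7% of Parp9 in WT and 11.5 and 18.1% in cKO, and 19.5 and 24.4% of Dtx3l in WT and 18.1 and 25.0% in cKO. H3K36me3 covered 85.3 and 88.7% of Parp9 in WT and 77.2 and 92.3% in cKO. The H3K36me3 shares of Dtx3l were 77.7 and 71.0% in WT and 73.7 and 83.0% in cKO. All 4 comparisons overlapped, and H3K36me3 spanned most of both genes in every library.

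Parp14 (chr16:35832874-35871544, minus strand), which lies on the far side of Dtx3l and runs the same way, did separate. H3K27ac covered 13.6 and 13.5% in WT and 20.2 and 19.4% in cKO, means of 13.6 ± 0.0745% and 19.8 ± 0.557% (SD, n = 2). H3K36me3 covered 81.9 and 81.2% in WT and 82.6 and 84.4% in cKO, a difference of 1.92 points. Although the H3K36me3 groups did not overlap, that difference was small beside the 43.9 points of Zbp1. Within 2 kb of the Parp14 start the H3K27ac groups overlapped, at 81.7 and 77.6% in WT and 80.5 and 84.0% in cKO.

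**Figure D4:**
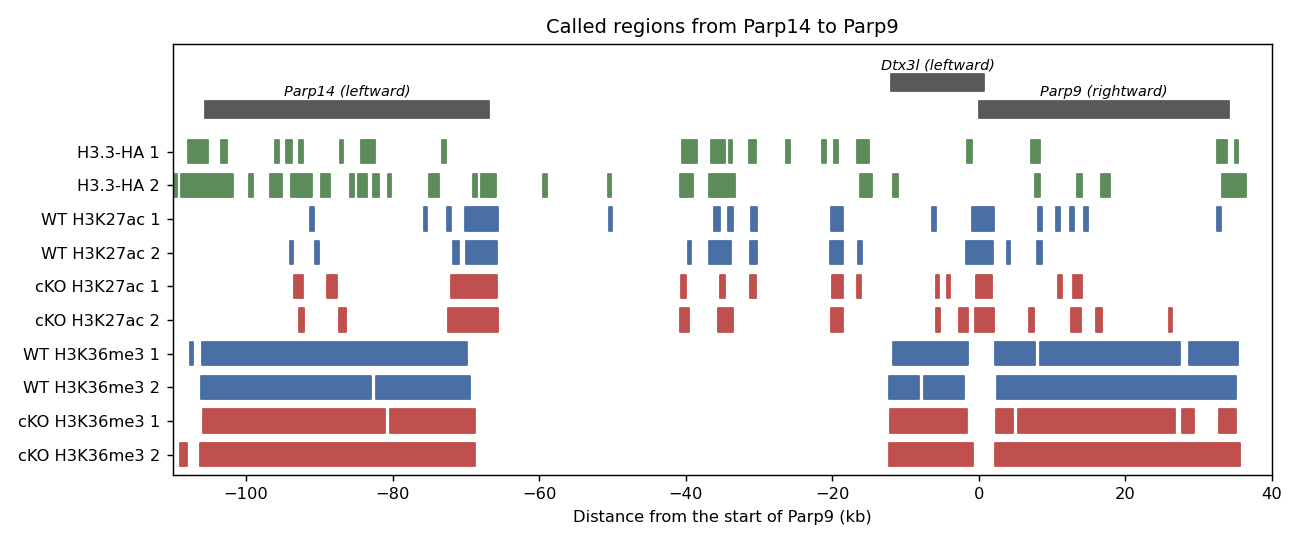
Called regions of each library (rows) from Parp14 to Parp9, by distance from the start of Parp9 in kb, with the 3 genes in grey and their direction in brackets, H3.3-HA in green, WT in blue and cKO in red. The start region of Parp14 is wider in both cKO libraries, while the region shared by the Parp9 and Dtx3l starts is not.

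The extent of the H3K27ac region at the gene start was measured next, a measure added after the regions had been seen. A region within 500 bp of the start was present in all 4 libraries at 7 members. Its downstream edge lay further from the start in both cKO libraries at 5 of them. Of 4001 genes with such a region in all 4 libraries, 29.0% had this pattern. At Parp14 the edge lay 3176 and 3017 bp from the start in WT and 5052 and 5559 bp in cKO. At Dhx58 it moved from 1128 and 1130 bp to 2178 and 2607 bp, and at Ddx58 from 882 and 1618 bp to 2089 and 2731 bp. The edge of Ifih1 lay at 3189 and 3150 bp in WT and 3341 and 4448 bp in cKO, and that of Trex1 at 6481 and 6439 bp in WT and 6926 and 6872 bp in cKO. The 5 genes were thus Ddx58, Ifih1, Dhx58, Trex1 and Parp14. Trex1 is 1.80 kb long, so its edge lay past the transcript end in all 4 libraries and did not move within the gene. Parp9 overlapped, at 2059 and 1977 bp in WT against 1848 and 1994 bp in cKO. Dtx3l went the other way, from 1561 and 2512 bp to 1018 and 1205 bp. With any 1 library left out the count was 5 or 6 of 7 or 8 members, while the share of all genes ran from 31.6 to 44.6%. At 3 of these genes the WT libraries also had a second, separate region near the cKO edge, so that a further edge there can be the joining of regions. At Dhx58 the second WT regions ended 2520 and 2619 bp from the start. At Parp14 they spanned 5132 to 5633 bp in WT replicate 1 and 4076 to 4852 bp in WT replicate 2. At Ddx58 WT replicate 1 had such a region from 1564 to 3019 bp, beyond both cKO edges.

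**Figure D5:**
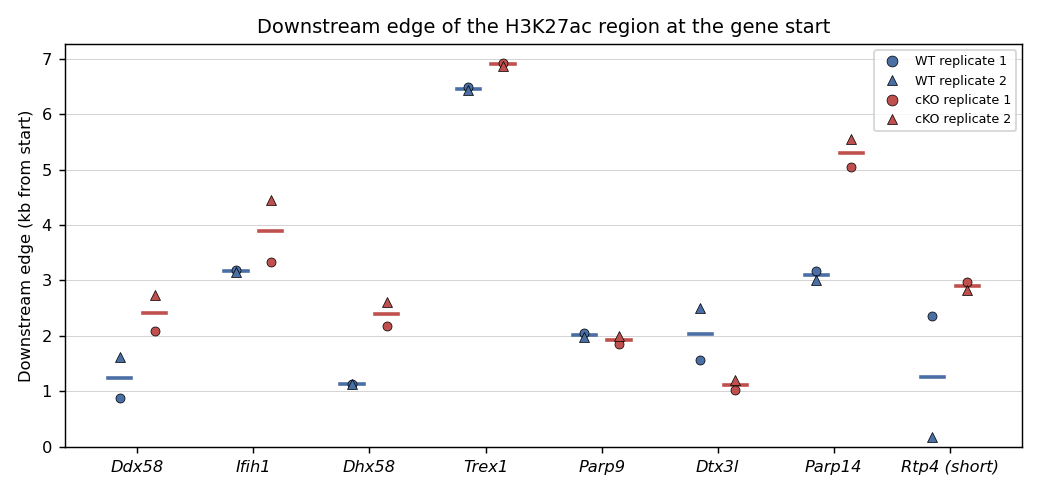
Distance in kb from the gene start to the downstream edge of the H3K27ac region at the start, for the 7 members with such a region in all 4 libraries and for the short transcript of Rtp4, with a circle for replicate 1, a triangle for replicate 2 and a bar for the mean. The cKO values lie above both WT values at every gene shown except Parp9, where they overlap, and Dtx3l, where they lie below.

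H3K36me3 began nearer the start in both cKO libraries at 5 of 10 members, Ifih1, Dhx58, Trex1, Rtp4 and Parp14, against 16.6% of 8512 genes with the mark in the gene body in all 4 libraries. No member had the reverse, a count given without the share of all genes, and 1 member had it when cKO replicate 2 was left out. At Parp14 the first covered base lay 2883 and 2557 bp from the start in WT and 1907 and 1824 bp in cKO. At Ifih1 it lay at 7298 and 7388 bp in WT and 6124 and 2638 bp in cKO. Measured from the start of the short Rtp4 transcript it lay at 2368 and 2409 bp in WT and 639 and 567 bp in cKO. This measure too was added after the regions had been seen, and the count was 5 to 10 with 1 library left out. It reached 10 without cKO replicate 1, where the share of all genes was 42.4%.

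Regions were also compared one by one after merging those of the 4 libraries. An H3K27ac region present in both cKO libraries and in no WT library was found at 2 of 10 members, Dtx3l and Parp14, against 17.3% of genes. A region present in both WT libraries and no cKO library was found at 1 of 10, Parp9, against 37.3% of genes. For H3K36me3 the counts were 1 of 10 gained, at Rtp4, against 8.47%, and 0 of 10 lost, against 23.6%. Each count rests on 0 to 2 genes.

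The gained region of Parp14 lay 25.2 to 26.5 kb inside the gene, and both H3.3-HA libraries had a region over it. WT replicate 2 had a separate region that began 26649 bp from the start, just beyond it. The gained region of Dtx3l, in a coding exon, ended 6594 bp from the start, and WT replicate 1 had a region that began at 6595 bp, so the 2 adjoined. The lost region of Parp9, in an intron 7.96 to 8.63 kb inside the gene, also had a region of both H3.3-HA libraries over it, and cKO replicate 2 had a region that ended at 7484 bp. The central 300 bases of each region are shown, as the stretches of the Parp14 to Parp9 locus listed as gained or lost by this rule. They are read 5′ to 3′ on the gene's strand from GRCm38/mm10 at chr16:35845561-35845860 for Parp14, chr16:35932728-35933027 for Dtx3l and chr16:35946613-35946912 for Parp9. Capitals mark a match to TTCNNNGAA.
Parp14: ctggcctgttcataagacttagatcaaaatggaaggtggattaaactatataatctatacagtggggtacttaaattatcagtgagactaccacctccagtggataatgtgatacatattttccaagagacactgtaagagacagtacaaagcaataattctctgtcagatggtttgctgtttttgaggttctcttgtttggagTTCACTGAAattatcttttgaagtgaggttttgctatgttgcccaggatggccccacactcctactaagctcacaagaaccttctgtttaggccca
Dtx3l: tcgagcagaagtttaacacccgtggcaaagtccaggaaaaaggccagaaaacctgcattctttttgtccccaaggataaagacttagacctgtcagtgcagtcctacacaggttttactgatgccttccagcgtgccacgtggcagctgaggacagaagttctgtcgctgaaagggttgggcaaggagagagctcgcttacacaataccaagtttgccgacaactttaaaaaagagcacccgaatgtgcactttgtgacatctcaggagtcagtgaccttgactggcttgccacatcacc
Parp9: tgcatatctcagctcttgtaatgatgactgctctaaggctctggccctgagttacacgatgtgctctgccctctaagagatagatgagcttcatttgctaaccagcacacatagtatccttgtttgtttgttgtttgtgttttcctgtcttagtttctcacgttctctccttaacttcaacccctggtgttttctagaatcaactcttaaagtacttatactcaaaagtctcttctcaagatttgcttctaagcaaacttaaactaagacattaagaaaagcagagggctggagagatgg
The Parp14 stretch held a single TTCNNNGAA match and the other sequences held neither motif. Of the central 300 bases of 89774 merged H3K27ac regions, 9.30% held TTCNNNGAA and 5.04% GAAANNGAAA. For the 2995 regions gained genome-wide the shares were 8.11 and 4.51%, and for the 12771 lost regions they were 9.81 and 5.31%.

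H3.3-HA was profiled in the tagged line alone, so its regions have no cKO counterpart. A region lay in the window in both libraries at 9 of 10 members, against 44.2% of all 21938 genes, with Zbp1 the exception. That share counts genes without any H3.3-HA region, unlike the shares given for the other marks. Of the 12429 genes with a region in at least 1 library, 9688 had it in both, so most such genes shared this trait. Zbp1 was listed at 0% in replicate 1 and 4.73% in replicate 2. The covered share was larger in replicate 2 at all 10 members. Replicate 2 also covered more of the genome, 62.8 against 56.2 Mb. Its median share over genes with a region was larger too, 7.75 against 5.77%. The count of members is thus not read as a trait of theirs. At Dhx58 the share was 12.8 and 50.5%, at Parp14 13.5 and 39.1%, and at Trex1 8.34 and 27.4%. The remaining members were covered at 2.83 to 20.2% in the 2 libraries. At Ifih1 (2.83 and 3.99%), Mavs (15.7 and 20.2%), Parp9 (8.53 and 8.76%) and Dtx3l (3.74 and 3.77%) the libraries lay closer together.

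Around the gene start, within 1 kb, both H3.3-HA libraries had a region at 3 of 10 members, Dhx58, Mavs and Trex1, against 13.3% of all genes. Around the transcript end, within 1 kb, they did so at 6 of 10, Ddx58, Dhx58, Trex1, Rtp4, Parp9 and Parp14, against 14.0%. Both shares count all 21938 genes, also those without any H3.3-HA region, and are thus low for a comparison with these members. In Trex1 the start and the end are so close that the intervals overlap. The end regions were wide at Rtp4, where they ran from 93.2 to 98.1 kb and from 92.4 to 98.3 kb from the start of the long record. At Parp14 they ran from 38.3 to 41.0 kb and from 34.9 to 41.9 kb, across the transcript end at 38.7 kb. Of 18 merged H3.3-HA regions shared by both libraries in the member windows, 14 overlapped H3K36me3 regions of both WT libraries, 9 overlapped H3K27ac regions of both, and 2 overlapped neither. Genome-wide, 28.7% of 27649 shared H3.3-HA regions overlapped WT H3K36me3 and 59.8% WT H3K27ac, but these include regions outside genes, so the 2 sets are not matched.

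Among 25 other genes of nucleic acid sensing and its signalling, chosen by role, H3K27ac was higher in both cKO libraries at 8 and lower at 6, and H3K36me3 was higher at 4 and lower at 3. Of all genes tested, 17.4% were higher and 38.2% lower for H3K27ac, and 7.85% were higher and 37.7% lower for H3K36me3. The medians of the differences over the 25 genes were -0.964 and -1.28 percentage points. For H3K27ac the largest differences that separated the groups were at Tank, an adaptor of the kinase Tbk1 (28.3 and 26.5% in WT, 12.0 and 10.8% in cKO), and Tkfc (6.47 and 11.5% in WT, 18.8 and 28.7% in cKO). They were followed by Irf7, the interferon regulatory factor (9.06 and 5.71% in WT, 23.7 and 15.2% in cKO), and the helicase gene Dhx9 (33.7 and 31.5% in WT, 21.04 and 22.2% in cKO). For H3K36me3 they were at Ddx60, a helicase gene (50.2 and 49.3% in WT, 79.8 and 93.6% in cKO), and Traf3, a signalling adaptor downstream of Mavs (42.0 and 43.6% in WT, 10.9 and 35.6% in cKO). Tkfc went down for this mark (40.03 and 39.98% in WT, 22.7 and 20.3% in cKO), while Mlkl, the effector of necroptosis, went up (33.5 and 35.9% in WT, 45.1 and 50.5% in cKO).

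At the 17 other PARP and deltex genes H3K27ac was higher at 1 and lower at 6, and H3K36me3 was higher at 2 and lower at 7. Beside these counts, 17.4 and 7.85% of all genes tested were higher, and 38.2 and 37.7% were lower. The medians over the 17 genes were -2.95 and -9.56 percentage points. For H3K27ac the largest separated differences were at Tnks (36.6 and 33.8% in WT, 14.5 and 20.9% in cKO), Tnks2 (20.5 and 18.4% in WT, 9.19 and 9.98% in cKO), Tiparp (29.9 and 37.4% in WT, 22.6 and 28.7% in cKO) and Parp2 (18.8 and 13.6% in WT, 9.61 and 13.5% in cKO). Tnks and Tnks2 encode the tankyrases, and Parp2 a PARP of DNA repair. For H3K36me3 they were at Parp6 (61.6 and 73.4% in WT, 25.0 and 54.8% in cKO), Parp11 (13.7 and 18.8% in WT, 32.9 and 51.6% in cKO), Parp8 (32.3 and 30.4% in WT, 8.06 and 16.2% in cKO) and Dtx2 (31.2 and 27.3% in WT, 4.49 and 16.7% in cKO). Of these 8 differences only that of Parp11 was upward in cKO. The other gene higher for H3K36me3 was Tiparp (42.9 and 45.3% in WT, 46.8 and 62.5% in cKO), which was lower for H3K27ac. Of the other RTP genes, Rtp1 and Rtp2 had no region of either mark in any WT or cKO library, and Rtp3 had H3K27ac regions only in WT replicate 2 (6.49%) and cKO replicate 2 (8.55%).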

How the data were processed

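The data were 10 lists of enriched regions from CUT & RUN libraries of mouse BMDMs, with 2 libraries per group. The 5 IgG samples were not analysed here. Per the labels, the submitters' processing notes name cutadapt, Bowtie, HOMER and deepTools and the mm10 build. Per the file headers, HOMER called regions in each library separately, at a Poisson p-value threshold of 0.001 and, against IgG, at least 4-fold enrichment with a Poisson p-value threshold of 1e-04. The deposited columns used were the start and end of each region. The score column holds a single constant, so no height could be compared, and only the presence and length of regions were measured.

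Regions were intersected with windows of GENCODE M21 genes, extended 5 kb upstream, in Python 3 with numpy and scipy. A gene was called higher or lower where both cKO values lay above or below both WT values, and an exact two-sided permutation test was run for each member. Percent covered was computed for all genes and the members read from that table. The scripts were tested on simulated regions. Members and gene lists were chosen with earlier results of these data known. Besides the members, genes of the other lists were named by the largest difference among those whose groups did not overlap, at most 4 per list and mark, and neighbours where their windows met. The alternatives were other windows, regions of at least 1 kb, lists of equal length, each library left out, same-numbered libraries paired, a margin of 5 percentage points, other rules for gained and lost regions, and other sets of background genes. Replicate numbers were shared between genotypes in the labels, without a statement that they mark a shared animal or day.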

Additional observations from a re-analysis of the deposited data

How the results depend on the processing

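The mean differences of Zbp1 and Parp14 for both marks kept their direction in all 11 alternatives each. So did that of Dhx58 for H3K36me3. Leaving out 1 library or pairing replicates cannot reverse a gene whose groups do not overlap, so those alternatives were no check of direction. Within 2 kb of the start the groups overlapped at Parp14 for H3K27ac and at Zbp1 for H3K36me3. Rtp4 kept its direction in 11 of 12 for each mark. The exception was the 2 kb around the start of its long record, where both marks were at 0 in all libraries. The H3K27ac difference of Trex1 was 0 over the gene body, and that of Mavs was reversed within 2 kb of the start, at 11.6 percentage points with groups that overlapped.

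Around the start the H3K27ac median was 5.82 points, but the difference was -18.8 at Parp9, positive over its window, and -19.2 at Dtx3l, where both cKO libraries were lower. There 0 members had a gained or lost H3K27ac region or a gained H3K36me3 region. Over the body alone, with 5 kb on both sides, with regions of at least 1 kb or with the widest regions in lists of equal length, 1 member was lower for H3K27ac. In the last setting 5 were higher. Keeping the first regions in list order, a choice made after seeing the data, gave 6 higher, against 24.7% of all genes. Lost H3K27ac regions were at 2 members with 5 kb on both sides or regions of at least 1 kb, and at 0 in both settings of equal length. Regions of at least 1 kb, and the rule that 50% of a merged region be covered, left 0 gained H3K36me3 regions. With 1 kb bins, 4 members gained H3K27ac, 6 gained and 1 lost H3K36me3. A margin of 5 points left 0 members lower for H3K27ac and 2 higher for H3K36me3. Apart from the setting in list order, these counts are given without the share of all genes under the same rule. They show how the counts move with the rule and cannot be read as a trait of the members.

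With 1 library left out, H3K27ac gave 3 to 7 members higher, 2 to 5 lower, 3 to 6 with gained and 2 to 6 with lost regions, and a median of -0.735 to 3.08. H3K36me3 gave 4 to 10 higher, 0 to 5 lower, 1 to 2 gained, 0 to 2 lost, and a median of -3.66 to 8.71. Both medians turned negative only without cKO replicate 2. With fewer libraries to separate, counts of higher and lower members can only grow. Of all genes, 20.6 to 37.6% were then higher and 40.4 to 57.5% lower for H3K27ac. For H3K36me3, 8.80 to 41.5% were higher and 38.2 to 79.9% lower. The gained and lost counts are given without such a share.

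With a replicate block, 4 members were higher and 2 lower for H3K27ac, and 4 and 0 for H3K36me3. The medians stayed at 1.38 and 3.76, since pairing cannot change a mean difference. Deviations of same-numbered libraries correlated at -0.101 across genes for H3K27ac and 0.104 for H3K36me3, so the numbers were not taken as pairs. Crossing the numbers gave 3 higher and 2 lower for H3K27ac. The counts with paired and crossed numbers are given without the share of all genes under the same rule. They cannot be read as a trait of the members.

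Counted over all protein-coding genes the background shares fell to 10.1 and 22.3% for H3K27ac and 4.28 and 20.6% for H3K36me3, higher and lower. Among genes with regions in 2 or more libraries they were 19.01, 41.7, 8.40 and 40.4%. The region lists hold no signal below their threshold.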
